A study of Mus musculus with 15 samples.

Results

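Cytosolic ribosomal proteins are described here in mouse liver across 3 diets. The members were all probe sets of the array whose annotation holds 1 gene symbol and whose symbol is Rpl, Rps or Rplp with a number, which are the names of the large-subunit, small-subunit and stalk proteins. They are 103 of 45101 probe sets, for 48 genes, where a probe set is a group of short oligonucleotides that read 1 transcript. Of these, 91 probe sets for 45 genes passed the filter on low signals and were tested, among 20342 tested in all. A further 110 probe sets join a ribosomal protein symbol with other symbols, mostly predicted genes, and were kept apart.

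Livers came from male C57BL/6J mice that were 8 weeks old at the start and were fed for 12 weeks. Each of the 5 mice per diet was measured on 1 GeneChip Mouse Genome 430 2.0 array. The CL+CX mice received the CL diet with β-cryptoxanthin, a carotenoid of citrus fruit, the CL mice received a high-cholesterol and high-fat diet, and the NC mice received the standard chow CRF-1. The CL diet held 0.5% sodium cholate and 1.25% cholesterol beside 60% cocoa butter and 38.23% of the same chow, and is used as a dietary model of steatohepatitis. The β-cryptoxanthin content is 0.003% of the diet in the treatment text and 0.005% in the sample titles.

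Ribosomal proteins are made in near-equal amounts, because each ribosome holds 1 copy of almost every one, and unassembled copies are degraded. Their mRNAs are abundant and stable, and in mammals they begin with a terminal oligopyrimidine (TOP) tract, a C at the cap followed by a run of C and T, through which mTORC1 and the cap-binding protein LARP1 set how strongly they are translated. In liver, which secretes large amounts of plasma protein, these mRNAs are a large share of the message pool.

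The TOP tract was looked for in the genome sequence at the annotated starts, since it is a feature shared by these genes that the selection by name did not use. The search asked for a C followed by 4 letters that are each C or T, on the strand of the gene only, beginning within 5 bases of a start that RefSeq annotates in GRCm38.p6. It was present for 20 of the 42 member genes that have an entry (47.6%), against 21.2% of 27025 genes in the table and 23.1% of the 14369 genes with a single-symbol probe set on this array. No entry was found for Rpl7, Rpl8, Rps14, Rps20, Rps29 and Rps4l. Each sequence below holds 10 bases before the annotated start and 20 bases from it on, with the matched run in capitals. The sequences shown were picked and hold the tract more often than the member genes do. Rpl38 is shown as a gene of high signal whose run begins at the annotated start. Rps18, Rps26 and Rpl12 are shown because results below turn on them, and Rplp0 because it passed the test and holds no match within 5 bases of the start. Of the other genes called in CL+CX against NC, Rpl37 and Rpl4 also hold no match and Rpl8 has no entry.
Rpl38: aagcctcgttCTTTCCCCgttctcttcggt
Rps18: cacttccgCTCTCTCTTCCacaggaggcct
Rps26: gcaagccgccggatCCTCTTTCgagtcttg
Rpl12: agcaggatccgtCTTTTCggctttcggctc
Rplp0: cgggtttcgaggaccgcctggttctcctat
They lie at chr11:114668570-114668599 on the plus strand (Rpl38), chr17:33955646-33955675 on the minus strand (Rps18), chr10:128626487-128626516 on the minus strand (Rps26), chr2:32961702-32961731 on the plus strand (Rpl12) and chr5:115559457-115559486 on the plus strand (Rplp0). The run in Rpl38 begins at the annotated start itself, and that of Rps26 begins 4 bases after it. A run of these letters further into the Rplp0 window lies outside the search. The annotated start can differ from the start used in liver, so the lack of a match says only that no such run begins within 5 bases of the annotated start.

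The deposited array signals were not scaled to each other, and their 75th percentiles lay between 41.5 and 79. Each array was therefore brought to a common 75th percentile of 54.1, which the methods also use, and all levels below are signals on that scale. CL replicate 2 stood apart, with a mean correlation of 0.941 with the other CL arrays where the other 4 CL arrays had 0.957 to 0.962, so results that rest on it are given with and without it. The β-actin 3′ minus 5′ difference, a sign of RNA integrity and labelling, was 1.07 ± 0.101 in CL+CX, 0.822 ± 0.0968 in CL and 0.937 ± 0.0859 in NC (log2, SD, n = 5 each). It ranged from 0.949 to 1.17 in CL+CX, 0.699 to 0.945 in CL and 0.842 to 1.05 in NC. The CL+CX and CL ranges did not overlap, so between these diets its part and that of diet cannot be told apart. The 10 hepatocyte markers tested of 12 summed to a signal of 58800 to 70500 in CL+CX, 54400 to 83300 in CL and 75500 to 94000 in NC. The 17 macrophage and monocyte markers tested of 18 summed to 2840 to 6850 in CL+CX, 8340 to 10200 in CL and 1360 to 2890 in NC. In whole liver, fewer cells of a type and less RNA per cell cannot be told apart. With this β-actin difference as a covariate, 0 of the 91 ribosomal protein probe sets were called in CL+CX against NC, where 9 were called without it, and their median difference was -0.33 in place of -0.26. Over all probe sets the same covariate took the share called to 3.26%, where it was 9.79% without it. The part of cell makeup in the results below was not tested.

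Ribosomal protein mRNAs moved up and down together from liver to liver. For each gene the NC mean was subtracted from its log2 signal, and the median of the 45 values, taken as the level of the liver, was -0.29, -0.19, -0.29, -0.26 and -0.29 in the CL+CX livers. It was -0.54, 0.44, -0.17, -0.37 and -0.29 in the CL livers, and 0.06, 0.11, 0, -0.08 and -0.07 in the NC livers. All 5 CL+CX livers lay below all 5 NC livers and close to each other, whereas the CL livers reached both the lowest and the highest level of the series. The mean level was -0.26 ± 0.0409 in CL+CX, -0.19 ± 0.374 in CL and 0 ± 0.0814 in NC (SD, n = 5 each). The high CL liver was replicate 2, in which 43 of the 45 genes lay above their NC mean, against 0 to 9 genes in the other 4 CL livers and 2 to 5 genes in the CL+CX livers.

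**Figure D1:**
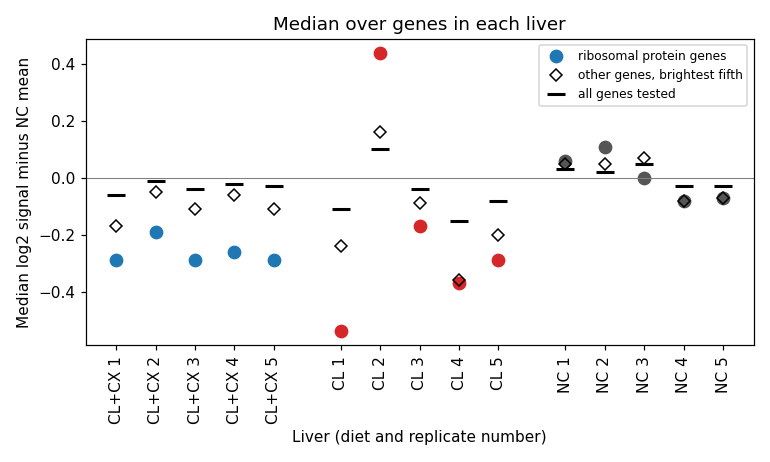
Median log2 signal minus the NC mean in each liver (y axis) by diet and replicate number (x axis), over the 45 ribosomal protein genes (filled circles), over the 2559 other genes among the brightest (open diamonds) and over all genes tested (dashes), after scaling to the 75th percentile. The 5 CL+CX livers lie between -0.29 and -0.19, below the 5 NC livers at -0.08 to 0.11, while the CL livers spread from -0.54 to 0.44. With the signals as deposited the CL+CX and NC livers overlap.

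Other bright genes moved in the same direction in these livers, but less. The 2559 other genes among the brightest were not matched to the ribosomal protein genes by signal, and the part of brightness in the difference was not tested. They had medians of -0.17, -0.05, -0.11, -0.06 and -0.11 in the CL+CX livers, and of -0.24, 0.16, -0.09, -0.36 and -0.2 in the CL livers. In CL replicate 4 the other bright genes were as low as the ribosomal protein genes (-0.36 against -0.37), and in CL replicate 2 they were raised by 0.16 where the ribosomal protein genes were raised by 0.44. The deposited 75th percentile, by which each array was divided, was 79 for CL replicate 1, the liver with the lowest ribosomal protein level, and 46 for CL replicate 2, the liver with the highest. The part of the scaling in this spread was not tested apart from the alternatives given below.

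Within diets, the correlation between pairs of ribosomal protein genes had a median of 0.79 over the 45 genes, from log2 values of 15 livers with the group means taken out. For the 35 genes among the brightest it was 0.87 and every pair was above 0, while the 2559 other bright genes had a median of 0.27. These correlations are a description, since all genes of a liver share 1 array and 1 scaling. Without CL replicate 2 the median of the 35 genes was 0.59, without the CL livers 0.52, and within the CL livers alone 0.94. With the signals as deposited it was 0.78, where the other bright genes had 0.52, and after quantile normalization it was 0.38, where the other bright genes had 0.002. Rps19, Rps7 and Rpl19 followed the other members most closely, each with a correlation of 0.98 with the mean of the other bright members, Rps19 and Rps7 being named here after their values were seen. Rpl14 (-0.11), Rpl12 (0.037) and Rpl39 (0.19) followed them least, and the probe sets of all 3 are dim.

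**Figure D2:**
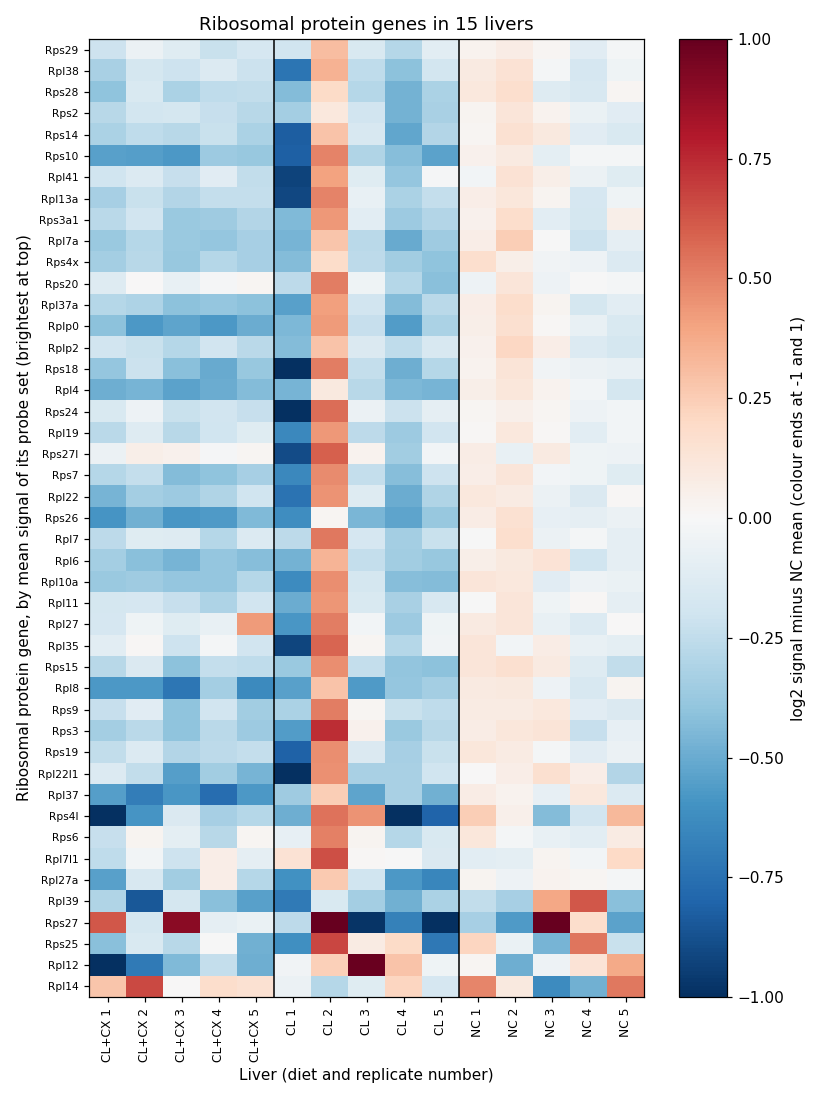
Log2 signal minus the NC mean (colour, ending at -1 and 1) of the 45 ribosomal protein genes (rows, by mean signal of their probe set) in 15 livers (columns, by diet and replicate number), after scaling to the 75th percentile. Whole columns take 1 colour in the upper rows, CL 2 high and CL 1 low, while the dim probe sets in the lowest rows, such as Rps27, Rpl12 and Rpl14, do not follow the columns. With the signals as deposited the medians of CL 1 and CL 3 are 0.19 and 0.29, above 0.

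The first comparison, of CL+CX with NC, asks how far livers on the supplemented diet differ from those on chow. Ribosomal protein genes were low as a group relative to the 75th percentile: the median difference of the 91 probe sets was -0.26 (quartiles -0.36 and -0.1) on the log2 scale, where all 20342 probe sets had -0.03 and the 4069 brightest had -0.11. With the signals as deposited, where the median of all probe sets shifted by 0.25, the median of the ribosomal protein probe sets was -0.01, and after quantile normalization it was -0.1. Relative to the median of all probe sets it lay at -0.23, -0.23 and -0.09 under these 3 scalings. Of the 91 probe sets, 8 fell and 1 rose at an adjusted p under 0.05 (limma with Benjamini-Hochberg), or 9 in either direction, against a background of 4.98% of all probe sets lower, 4.81% higher and 9.79% in either direction. In 36 of the 91 (39.6%) every CL+CX liver lay below every NC liver, where 8.54% of all probe sets did so, and in 1 of the 91 every CL+CX liver lay above, where 5.61% of all did. By gene, 41 of 45 were below 0 (91.1%, where 55.1% of all 10521 genes were), and in 24 of 45 (53.3%, where 8.68% of all genes were) every CL+CX liver lay below. Called by gene were 5 lower and 0 higher, against 4.85% and 5.11% of all genes.

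Large-subunit and small-subunit proteins lay at similar differences. The 24 genes of the large subunit and its stalk had a median of -0.3 with 22 below 0 and 4 called, and the 21 genes of the small subunit had a median of -0.27 with 19 below 0 and 1 called, in CL+CX against NC. In CL against NC the medians were -0.22 and -0.21, and in CL+CX against CL they were -0.09 and -0.08. The plot of the 3 comparisons gives the difference of each gene.

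**Figure D3:**
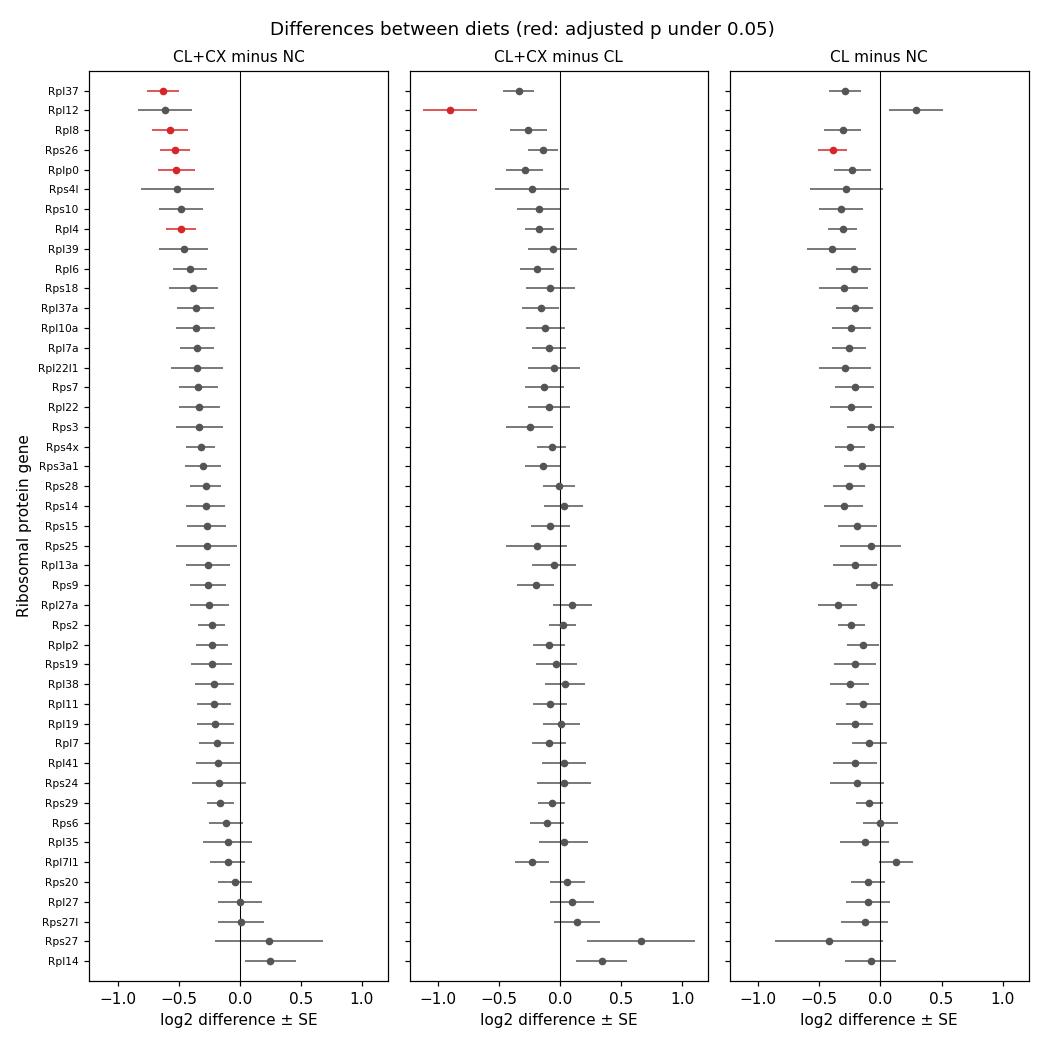
Log2 difference with its standard error (x axis) of the 45 ribosomal protein genes (y axis, ordered by CL+CX minus NC) for CL+CX minus NC, CL+CX minus CL and CL minus NC, after scaling to the 75th percentile, with genes at an adjusted p under 0.05 in red. The red genes are Rpl37, Rpl8, Rps26, Rplp0 and Rpl4 in CL+CX minus NC, Rpl12 in CL+CX minus CL and Rps26 in CL minus NC. Without scaling, CL minus NC has a median of 0.14 over the 91 probe sets, above 0.

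Rpl37 encodes a small zinc-binding protein of the large subunit. Its signal was 194, 176, 190, 168 and 191 in CL+CX livers, against 300, 292, 269, 305 and 259 in NC livers. All CL+CX livers lay below all NC livers and also below all CL livers, which had 223, 336, 197, 227 and 204. The difference between CL+CX and NC was -0.63 ± 0.13 (log2, SE, adjusted p = 0.00945 in limma). It passed the test without any 1 of the 15 livers, but the call was lost with the signals as deposited (-0.39, adjusted p = 0.128), with no filter (adjusted p = 0.0513) and with the β-actin covariate (adjusted p = 0.0597). Between CL+CX and CL it was -0.34 (95% interval -0.63 to -0.06), which did not pass the test (adjusted p = 0.167). These values are from the single-symbol probe set of Rpl37. Brighter probe sets that join Rpl37 with another symbol differed by -0.38 (adjusted p = 0.0826) and -0.21 (adjusted p = 0.266) in CL+CX against NC. A dim joined probe set differed by -0.53 (adjusted p = 0.133). Only the probe set at -0.38 had CL+CX livers all below the NC livers. In each joined probe set the CL+CX and CL livers overlapped.

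Rps26 sits where the mRNA leaves the small subunit and is mutated in some families with Diamond-Blackfan anaemia, an inherited failure of red cell production. Its signal was 1891, 2042, 1899, 1925 and 2098 in CL+CX livers, 1850, 2876, 2070, 1978 and 2186 in CL livers, and 2995, 3167, 2689, 2674 and 2725 in NC livers. All CL+CX livers and 4 of 5 CL livers lay below every NC liver, and CL replicate 2 lay among the NC livers. The difference was -0.53 ± 0.12 in CL+CX against NC (adjusted p = 0.0125) and passed the test without any 1 liver. The call was lost with the signals as deposited (-0.28, adjusted p = 0.21), with no filter (adjusted p = 0.0641) and with the β-actin covariate, where the adjusted p was 0.05. Rps26 was also the only member called in CL against NC, as described with that comparison.

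Rpl4 lines part of the tunnel through which the new protein leaves, and is in use as a reference gene in PCR. Its signal was 2333, 2373, 2262, 2320 and 2427 in CL+CX livers, against 3401, 3535, 3359, 3204 and 2900 in NC livers. The groups did not overlap, and the CL livers ranged over both with 2367, 3507, 2701, 2400 and 2365. The difference between CL+CX and NC was -0.48 ± 0.12 (adjusted p = 0.0186) and passed the test without any 1 liver. As deposited it was -0.24 (adjusted p = 0.32), and the call was also lost with no filter (adjusted p = 0.085) and with the β-actin covariate (adjusted p = 0.0772).

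Rpl8 lies close to the peptidyl transferase centre, where peptide bonds are made. Its signal was 1486, 1491, 1342, 1750 and 1422 in CL+CX livers, against 2352, 2374, 2135, 1978 and 2259 in NC livers. No CL+CX liver reached the lowest NC liver. The difference was -0.57 ± 0.15 (adjusted p = 0.0246). The call was lost without NC replicate 1, 2 or 5 or without CL+CX replicate 2, 3 or 5, with an adjusted p of 0.0514 to 0.0613 in those 6 fits. It was also lost as deposited (-0.32, adjusted p = 0.192), with no filter (adjusted p = 0.102) and with the β-actin covariate (adjusted p = 0.0533).

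Rplp0 is the base of the stalk, the arm that draws elongation factors to the ribosome, and is among the genes most used as a reference in PCR. Its signal was 2805, 2500, 2590, 2505 and 2641 in CL+CX livers, 2732, 5012, 3176, 2529 and 2992 in CL livers, and 3879, 4168, 3767, 3537 and 3360 in NC livers. The CL+CX livers lay below all NC livers, and CL replicate 2 lay above all of them. The difference between CL+CX and NC was -0.52 ± 0.15 (adjusted p = 0.0447). The call was lost in 12 of the 15 fits that left out 1 liver (every NC and CL+CX liver and CL replicates 3 and 5, adjusted p up to 0.0972), and its adjusted p was 0.00326 without CL replicate 2. As deposited the difference was -0.27 (adjusted p = 0.296), and the call was lost too with no filter (adjusted p = 0.153) and with the β-actin covariate (adjusted p = 0.154). Rplp2, which forms the tip of the same stalk with Rplp1, had a signal of 2740 ± 81.9 in CL+CX and 3230 ± 348 in NC (SD, n = 5 each), with livers that did not overlap and a difference of -0.23 that did not pass the test (adjusted p = 0.257). The single-symbol rule holds no probe set of Rplp1.

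**Figure D4:**
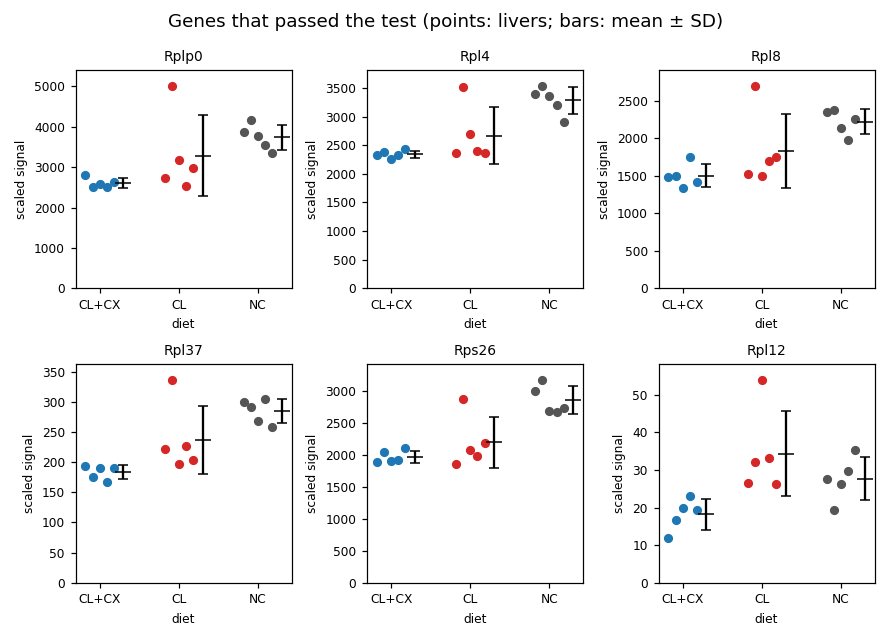
Scaled signal (y axis, from 0) of the 6 ribosomal protein genes that passed a test, in CL+CX, CL and NC livers (x axis), with points for the 5 livers of a diet and bars for mean ± SD. In Rplp0, Rpl4, Rpl8, Rpl37 and Rps26 all CL+CX livers lie below all NC livers and 1 CL liver, replicate 2, stands above the other CL livers. In Rpl12 all signals are at or below 53.9.

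Other probe sets called in CL+CX against NC stand for genes whose brightest probe set was not called, and were singled out after their values were seen. For Rpl13a, a reference gene in PCR whose product in human monocytes also silences some inflammatory mRNAs, probe sets 1417608_a_at and 1455001_x_at fell by 0.55 (adjusted p = 0.0478) and by 0.67 (adjusted p = 0.0288) on the log2 scale. In 1455001_x_at the signal was 318, 304, 354, 351 and 335 in CL+CX livers, against 511, 542, 520, 560 and 515 in NC livers, with no overlap. The brightest Rpl13a probe set, 1455485_x_at, had 3026, 3261, 3109, 3236 and 3222 in CL+CX livers and 3996, 4123, 3885, 3384 and 3692 in NC livers, with a difference of -0.26 (adjusted p = 0.379). The calls of 1417608_a_at and 1455001_x_at were lost in 13 and in 8 of the 15 fits that left out 1 liver. A dim probe set of Rpl41, 1454639_x_at, fell by 0.48 (adjusted p = 0.0457), with 28.8 ± 6.81 in CL+CX and 39.6 ± 3.27 in NC, and its call was lost in 13 of 15 such fits. With the signals as deposited these 3 probe sets had differences of -0.31, -0.43 and -0.24 (adjusted p = 0.223, 0.137 and 0.327), and none was called with no filter or with the β-actin covariate.

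Rps18, a protein of the small-subunit head and a further reference gene in PCR, gave opposite readings. Probe set 1455572_x_at had a signal of 2693, 2977, 2769, 2905 and 2253 in CL+CX livers, 1728, 1859, 3257, 2068 and 2661 in CL livers, and 1548, 1514, 2161, 1261 and 1351 in NC livers. The CL+CX livers lay above all NC livers, and CL replicate 2 was among the lower CL livers here. It rose by 0.81 ± 0.18 in CL+CX against NC (adjusted p = 0.0119), was the only ribosomal protein probe set to do so, and kept its call without any 1 liver and with the signals as deposited (1.06, adjusted p = 0.00569). It was not called with no filter or with the β-actin covariate. The other Rps18 probe sets tested, 1448739_x_at and 1435712_a_at, lay below NC without overlap at -0.38 (adjusted p = 0.235) and -0.35 (adjusted p = 0.281). In 1448739_x_at the signal was 2563, 2893, 2508, 2358 and 2584 in CL+CX livers, 1659, 4784, 2841, 2384 and 2746 in CL livers, and 3428, 3675, 3280, 3215 and 3189 in NC livers. The suffix x marks probe sets in which some probes also match other transcripts.

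Rps10, a protein of the same region named here after its values were seen, held a further odd probe set. In 4 of its 5 tested probe sets every CL+CX liver lay below every NC liver, and the brightest, 1438723_a_at, had a difference of -0.48 (adjusted p = 0.102). Probe set 1439374_x_at had 598, 613, 340, 611 and 579 in CL+CX livers, 889, 840, 567, 1099 and 686 in CL livers, and 644, 437, 663, 825 and 349 in NC livers. Its livers overlapped in all 3 comparisons, with differences of -0.06 in CL+CX against NC, -0.57 in CL+CX against CL and 0.51 in CL against NC, none of which passed the test. Across the 20 genes with more than 1 tested probe set, all probe sets lay on the same side of 0 for 14 genes in CL+CX against NC, 10 in CL+CX against CL and 15 in CL against NC. The remaining 25 genes have 1 tested probe set.

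**Figure D5:**
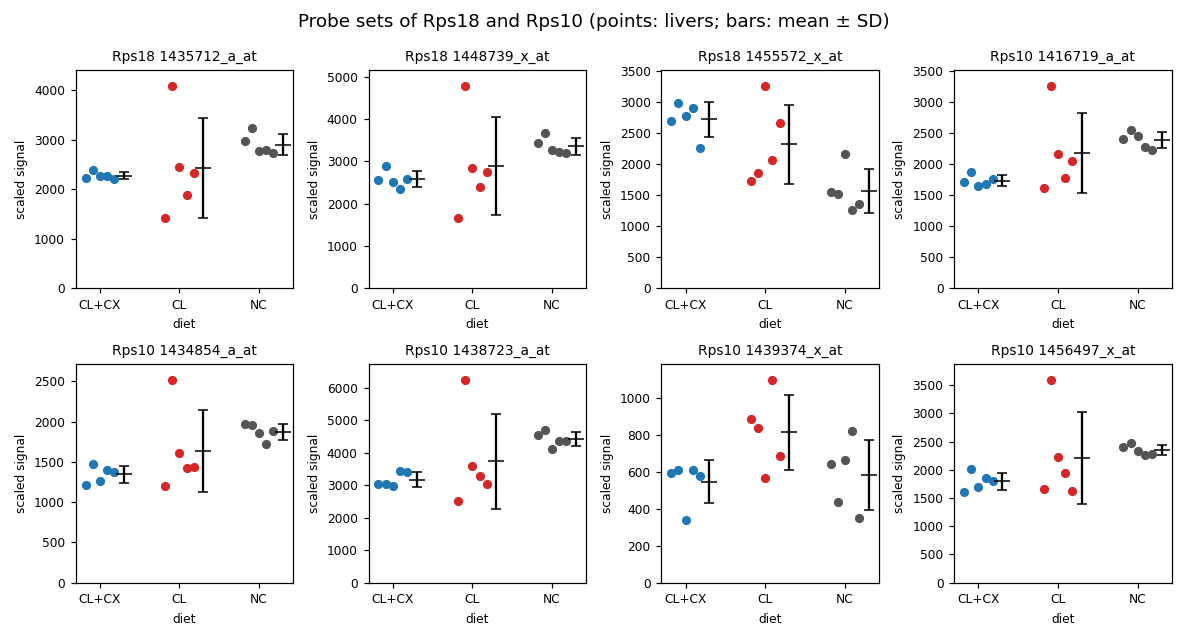
Scaled signal (y axis, from 0, on a different scale in each panel) of the 3 tested probe sets of Rps18 and the 5 of Rps10 in CL+CX, CL and NC livers (x axis), with points for livers and bars for mean ± SD. Rps18 1455572_x_at is highest in CL+CX and lowest in NC while the other Rps18 probe sets are highest in NC outside CL replicate 2, and Rps10 1439374_x_at lacks the gap between CL+CX and NC seen in the other 4.

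The second comparison, of CL+CX with CL, asks what β-cryptoxanthin did on the same diet. The median difference of the 91 probe sets was -0.07 (all probe sets 0.04), 59 lay below 0 (64.8%, where 44.3% of all probe sets did), and 1 fell and 0 rose, against a background of 1.55% lower, 1.58% higher and 3.13% in either direction. At an unadjusted p under 0.05, 6 were lower and 0 higher, against 8.5% and 11.2% of all probe sets. By gene, 1 was called lower and 0 higher, against 1.78% and 1.48% of all genes, and 32 of 45 lay below 0 (71.1%, where 46.2% of all did). Every CL+CX liver lay below every CL liver in 2 of the 91 (2.2%, where 2.02% of all probe sets did), those of Rpl37 and Rpl12, and above it in 0, where 3.01% of all probe sets did. Without CL replicate 2 the median turned to 0.07 and 0 probe sets were called, and without CL replicate 1 it was -0.16. For the typical member the interval of the difference was wide: for Rplp0 it was -0.62 to 0.04, for Rps2 -0.22 to 0.25 and for Rpl19 -0.32 to 0.33 (95%, log2).

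Rpl12, which lies at the foot of the stalk and helps elongation factors to bind, was the member called. Its only single-symbol probe set, 1435655_at, had 11.9, 16.6, 19.9, 23 and 19.4 in CL+CX livers, 26.5, 32, 53.9, 33.1 and 26.3 in CL livers, and 27.5, 19.4, 26.2, 29.8 and 35.2 in NC livers. All CL+CX livers lay below all CL livers, and they overlapped with the NC livers. The difference from CL was -0.9 ± 0.22 (adjusted p = 0.04), and it was lost in 11 of the 15 fits that left out 1 liver (NC 1 and 3, every CL+CX liver and CL 1 to 4, adjusted p up to 0.0887). It was also lost as deposited (adjusted p = 0.087), at a common median (adjusted p = 0.0538), with no filter (adjusted p = 0.167) and with the β-actin covariate (adjusted p = 0.761). Of all probe sets, only 0.0844% were called in this comparison with no filter and 0.00492% with the covariate. The Rpl12 signals are near the array medians, and its probe set passed the filter through the CL and NC livers and not through the CL+CX livers, so it was tested only through groups in which it was higher. The 2 probe sets that join Rpl12 with predicted genes had differences of -0.18 (adjusted p = 0.592) and -0.13 (adjusted p = 0.755).

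The third comparison, of CL with NC, asks what the high-fat diet did. The median difference was -0.18 (all probe sets -0.09, the 4069 brightest -0.15) and 81 of 91 lay below 0 (89%, where 61.2% of all probe sets did), but 1 probe set fell and 0 rose, against a background of 6.35% lower, 5.9% higher and 12.2% in either direction. By gene, 1 was called lower and 0 higher, against 6.76% and 7.2% of all genes, and 42 of 45 lay below 0 (93.3%, where 60.1% of all did). At an unadjusted p under 0.05, 9 were lower and 1 higher, against 16% and 10.7% of all probe sets. In 0 of the 91 did the CL and NC livers fail to overlap, where 5.21% of all probe sets had every CL liver below and 4.92% every CL liver above. The direction depended on the scaling: the median was 0.14 with the signals as deposited, where the median of all probe sets shifted by 0.32, and -0.01 after quantile normalization. Relative to the median of all probe sets it was -0.09 after scaling and as deposited, and 0.04 after quantile normalization. As deposited, 2 members were called and both were higher, and after quantile normalization 1 was higher and 1 lower. These counts stand without the share of all probe sets called in the same fits, so they do not single out ribosomal proteins.

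The member called in CL against NC was Rps26, which fell by 0.39 on the log2 scale (SE 0.12, adjusted p = 0.042), with 4 of 5 CL livers below the lowest NC liver. The call was lost in 14 of the 15 fits that left out 1 liver (adjusted p up to 0.1) and was kept only without CL replicate 2, where the difference was -0.5 and the adjusted p 0.003. It was also lost as deposited (-0.08, adjusted p = 0.76), after quantile normalization (adjusted p = 0.18), at a common median (adjusted p = 0.116), with no filter (adjusted p = 0.148) and with the β-actin covariate (adjusted p = 0.148). Without CL replicate 2, 35 of the 91 probe sets were called (38.5%, where 18.9% of all probe sets were called in that fit), and the median was -0.35. Genes that passed then, but not with all 15 livers, include Rplp0 (-0.39, adjusted p = 0.015), Rpl8 (-0.46, adjusted p = 0.00811), Rpl4 (-0.42, adjusted p = 0.00625), Rpl37 (-0.42, adjusted p = 0.0074), Rps18 (-0.51, adjusted p = 0.0229), Rpl22 (-0.42, adjusted p = 0.0281) and Rpl19 (-0.37, adjusted p = 0.0239). Rps14 (-0.45, adjusted p = 0.0239), Rps28 (-0.38, adjusted p = 0.0183), Rps2 (-0.33, adjusted p = 0.0209) and Rpl38 (-0.4, adjusted p = 0.0299) did so too. In the liver left out, 43 of the 45 genes lay above their NC mean, so its removal lowers CL for these same genes. These calls are therefore no separate test of a fall in CL. The other scalings and the β-actin covariate were not applied without this liver. With this liver left out, 25 of 91 were called in CL+CX against NC (27.5%, where 14.7% of all probe sets were), since all groups share 1 estimate of the spread. A fit of the CL+CX and NC livers alone called 30 of 91 (33%, where 16.8% of all were). The test over all 3 diets called 8 members of 91 (8.79%, where 15.6% of all probe sets were called), and 36 without CL replicate 2 (39.6%, where 22.1% of all were). The comparisons share livers, so their lists of called members are not independent.

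The 5 genes of highest signal passed no test with all 15 livers, and 4 of them, all but Rps29, passed in CL against NC without CL replicate 2. Rps29, a zinc-binding protein of the small-subunit head, had 5811, 6442, 6172, 5734 and 5959 in CL+CX livers, 5842, 8323, 6035, 5516 and 6226 in CL livers, and 6873, 7069, 6796, 6201 and 6620 in NC livers. The groups overlapped, and CL replicate 2 was again the highest. Rps28 averaged 4140 ± 265 in CL+CX, 4230 ± 854 in CL and 5030 ± 499 in NC, and Rpl38, which in mouse embryos is needed for the translation of a set of Hox mRNAs, averaged 4240 ± 204 in CL+CX, 4250 ± 1220 in CL and 4910 ± 406 in NC (SD, n = 5 each). Rps14, a protein of the small-subunit platform, averaged 3660 ± 105 in CL+CX, 3720 ± 1090 in CL and 4450 ± 402 in NC. Rps2, which lies at the mRNA entry, averaged 3830 ± 127 in CL+CX, 3830 ± 609 in CL and 4500 ± 289 in NC. For Rps14 and Rps2 every CL+CX liver lay below every NC liver. Rpl19, a reference gene in PCR, had a difference of -0.2 in CL+CX against NC (95% interval -0.53 to 0.12, adjusted p = 0.428), also without overlap.

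Paralogues of ribosomal proteins, which can replace their partners in some tissues, were set beside them by their differences and not by their levels. Rpl22 differed by -0.33 in CL+CX against NC (adjusted p = 0.228) and by -0.24 in CL against NC, and Rpl22l1, which Rpl22 holds down in mouse cells, by -0.35 (adjusted p = 0.298) and by -0.29. Rpl22l1 had 660, 612, 495, 571 and 525 in CL+CX livers, 344, 997, 578, 578 and 631 in CL livers, and 727, 758, 809, 758 and 593 in NC livers, so it was low in CL replicate 1 and high in CL replicate 2 like most members. Rpl7 differed by -0.19 in CL+CX against NC and by -0.09 in CL against NC, and Rpl7l1 by -0.1 and by 0.13, none past the test. Rps27l, a paralogue that p53 induces in human cells, averaged 2640 ± 86.3 in CL+CX, 2530 ± 942 in CL and 2620 ± 140 in NC, a difference of 0.01 in CL+CX against NC (95% interval -0.4 to 0.42). The single-symbol probe set of its partner Rps27 was dim and scattered. It had 92.1, 53.2, 112, 56.4 and 57.3 in CL+CX livers, 49.9, 138, 30.4, 37.6 and 23 in CL livers, and 47.7, 40.5, 143, 67.9 and 41.5 in NC livers. The groups overlapped throughout, and the interval for CL+CX against NC was -0.69 to 1.17. A brighter probe set that joins Rps27 with another symbol averaged 1340 in CL+CX, 1490 in CL and 1940 in NC. Its difference was -0.54 in CL+CX against NC (adjusted p = 0.1), without overlap. In CL against NC it was -0.47 (adjusted p = 0.142), with overlap. Rpl3l, which replaces Rpl3 in striated muscle, and Rpl39l, which replaces Rpl39 in the testis, did not pass the filter in any diet. The similarity of the paralogue proteins was not analysed here.

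The remaining members read by dim single-symbol probe sets gave indistinct readings too. Rpl39, which lines the exit tunnel, averaged 53.2 ± 9.04 in CL+CX, 55.1 ± 7.67 in CL and 75.3 ± 25.7 in NC, with a difference of -0.46 in CL+CX against NC (adjusted p = 0.159). Rps25 averaged 29.3 ± 3.99 in CL+CX, 35.3 ± 14 in CL and 36 ± 9.89 in NC, and Rpl14 averaged 18.4 ± 3.4 in CL+CX, 14.5 ± 1.97 in CL and 16.1 ± 5.69 in NC. Neither passed a test. Brighter probe sets that join these genes with other symbols did not pass either. Those of Rpl39 and Rps25 differed by -0.24 and -0.34 in CL+CX against NC (adjusted p = 0.328 for each), without overlap. The brightest one of Rpl14 differed by -0.2 (adjusted p = 0.402), with overlap. Of the 103 member probe sets, 85 passed the filter in all 3 diets, 4 in 2 diets, 2 in 1 diet and 12 in none, and the 3 genes with no tested probe set were Rpl3l, Rpl39l and Rps16. Of the 91 tested, 75 lay above the 75th percentile on all 15 arrays. The 98 tested probe sets that join a ribosomal protein symbol with others had medians of -0.24 in CL+CX against NC, -0.06 in CL+CX against CL and -0.18 in CL against NC. Among them, Rpl32, a reference gene in PCR that only such a probe set reads, differed by -0.23 in CL+CX against NC (adjusted p = 0.491), Rpl3 by -0.29 (adjusted p = 0.191) and Rplp1 by -0.26 (adjusted p = 0.184).

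Other genes of translation were taken from lists of the pathway, by the brightest probe set of each gene. Calls from these lists, here and in the next paragraph, are those of the main settings. Whether they hold under the other scalings, filters, leave-outs or the β-actin covariate is not shown. Leaving the arrays unscaled moved the typical difference up by 0.25 in CL+CX against NC and by 0.32 in CL against NC. Some falls below are close to that size. Over all genes, 4.85% were called lower and 5.11% higher in CL+CX against NC, then 1.78% lower and 1.48% higher for CL+CX against CL, and 6.76% lower and 7.2% higher for CL against NC, and the counts of each list stand against these shares. Of 2 ribosomal proteins with other names, Rpsa differed by -0.42 (adjusted p = 0.0838) and Fau by -0.39 (adjusted p = 0.146) in CL+CX against NC, with medians of -0.06 in CL+CX against CL and -0.34 in CL against NC. Of 25 translation factors and other TOP mRNAs, 3 fell and 0 rose in CL+CX against NC, 0 passed in CL+CX against CL, and 3 fell and 0 rose in CL against NC, with medians of -0.23, -0.06 and -0.15. Eef2, which moves the ribosome along the mRNA and carries a TOP tract, had 1654, 1925, 2013, 2236 and 1887 in CL+CX livers, 1752, 1568, 1728, 1743 and 1729 in CL livers, and 2586, 2524, 2396, 2189 and 2347 in NC livers. It fell in CL against NC by 0.5 on the log2 scale (SE 0.1, adjusted p = 0.00527), and unlike most ribosomal protein genes it was not raised in CL replicate 2. Pabpc1, the poly(A)-binding protein, fell by 0.34 in CL+CX against NC (adjusted p = 0.0271) and by 0.35 in CL against NC (adjusted p = 0.0204). Etf1, the release factor that ends translation, and Eif3k fell in CL+CX against NC, by 0.62 (adjusted p = 0.0404) and by 0.47 (adjusted p = 0.0478), and Eif4b fell in CL against NC by 0.41 (adjusted p = 0.0447).

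Of 49 ribosome assembly factors, 6 fell and 0 rose in CL+CX against NC, 0 passed in CL+CX against CL, and 2 fell and 0 rose in CL against NC, with medians of -0.14, -0.08 and -0.11. Nob1, the nuclease that finishes the small-subunit RNA, fell by 0.59 in CL+CX against NC (adjusted p = 0.0153) and by 0.55 in CL against NC (adjusted p = 0.0161). Of 15 regulators of ribosomal protein synthesis, 1 fell in CL+CX against NC, 1 rose in CL+CX against CL and 2 fell in CL against NC. Larp1 had 304, 321, 332, 387 and 362 in CL+CX livers, 320, 263, 274, 336 and 265 in CL livers, and 456, 440, 467, 425 and 433 in NC livers. All livers on either CL diet lay below all NC livers, and Larp1 fell by 0.38 in CL+CX against NC (adjusted p = 0.034) and by 0.61 in CL against NC (adjusted p = 0.00183). Tsc2, an inhibitor of mTORC1, had 77.3, 84.5, 93.3, 86.9 and 92.9 in CL+CX livers, 47, 54.5, 59.3, 70 and 56.7 in CL livers, and 89.5, 72, 90.8, 87.6 and 104 in NC livers. The CL livers lay below all others. Tsc2 thus rose by 0.61 in CL+CX against CL (adjusted p = 0.0226) and fell by 0.63 in CL against NC (adjusted p = 0.00474). Its difference between CL+CX and NC was -0.02. With the β-actin covariate only 0.00492% of all probe sets were called in CL+CX against CL, and whether Tsc2 was among them is not shown. Of 76 mitochondrial ribosomal proteins, which belong to a separate ribosome, 2 fell and 1 rose in CL+CX against NC, 0 passed in CL+CX against CL, and 3 fell and 1 rose in CL against NC, with medians of -0.14, -0.05 and -0.09. Their largest changes past the test were those of Mrpl38, which fell by 0.75 in CL+CX against NC (adjusted p = 0.018), and of Mrpl15, which fell by 0.64 in CL against NC (adjusted p = 0.0344).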

How the data were processed

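Total RNA of each liver was labelled and hybridised by the authors to 1 array per mouse, and MAS5 summarised the probes of each probe set. The intensity values the authors deposited are linear MAS5 signals, with no scaling between arrays and no detection calls. Arrays were multiplied so that all had a 75th percentile of 54.1 over all probe sets, and the 64 control probe sets were left out after that. Signals below 1 were set to 1 (11.3% of values) before log2. Probe sets at or above their array median in all 5 arrays of at least 1 diet were tested. Means of the 3 diets were fitted in 1 model over all 20342 probe sets with limma 3.58.1 in R 4.3.3, with Benjamini-Hochberg adjustment and a threshold of 0.05. A gene is its probe set of highest mean signal. Scaled signals of different probe sets are not comparable as levels. Symbols came from the platform annotation, and start sequences from RefSeq. The array number, 5 per diet, limits the precision, and labels do not say that mice were housed or processed in batches. Samples were grouped by their labels.

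The members, gene lists, tests and alternatives were chosen with earlier results of these data known. Genes named were the members past the test, the 5 of highest and of lowest signal, paralogue pairs, stalk proteins and PCR reference genes, with up to 3 genes past the test from each other list in each comparison. Others are marked in the text. Alternatives were other filters, scalings and an offset of 16, the methods' test (a Welch one-way test with Tukey comparisons), a trended robust prior, fits of 2 groups, the replicate number as a block, the β-actin covariate, other probe set choices and each mouse left out. The fit was tested on simulated data. Figures were drawn with matplotlib 3.10.9 and numpy 2.4.6 in Python 3.11.15.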

Additional observations from a re-analysis of the deposited data

Results flagged for a closer look

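For 4 of 75 groups of 5 livers tested, 1 liver lay farther from the others than Dixon's test allows at the 95% level, and chance flags about 1 in 20 groups. All 4 were CL replicate 2, with scaled signals of 336 for Rpl37, 3420 for Rpl7, 2700 for Rpl8 and 5720 for Rps28, each above the other 4 CL livers.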

How the results depend on the processing

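Both the counts of called ribosomal protein probe sets and their median differences changed with the settings. The main counts were 9 for CL+CX against NC, 1 for CL+CX against CL, 1 for CL against NC and 8 for all 3 diets, and they are given in this order below. With no filter all 4 counts were 0 of 103 in limma, while 25, 4 and 7 probe sets had an unadjusted p under 0.05 in the 3 comparisons. Few of all probe sets were called in that fit either, with 1.34%, 0.0844%, 2.5% and 2.36% in the same order. A filter at the 75th percentile gave 14 for CL+CX against NC and 3 for CL against NC. The signals as deposited gave 2, 0, 2 and 4 (for the 0, 9 at an unadjusted p under 0.05), with medians of -0.01 for CL+CX against NC and 0.14 for CL against NC. Quantile normalization gave 2 for CL+CX against CL and 2 for CL against NC. Scaling to a common median gave 0 for CL+CX against CL, 0 for CL against NC (6 and 5 at an unadjusted p) and 5 for all diets. An offset of 16 and the trended robust prior each gave 2 for CL+CX against CL and 2 for CL against NC. The methods' test gave 15, 2, 6 and 25. Fits of only the 2 groups compared gave 30 for CL+CX against NC and 0 for CL+CX against CL (5 at an unadjusted p), where 16.8% and 0.994% of all probe sets were called. The β-actin covariate gave 0, 0 and, for all diets, 2, with 25 and 2 at an unadjusted p, and medians of -0.33 for CL+CX against NC and -0.19 for CL+CX against CL. With it 3.26%, 0.00492% and, for all diets, 7.93% of all probe sets were called. Probe sets without the suffixes s and x gave 5 for CL+CX against NC and 4 for all diets. Genes by the mean of their probe sets gave 5 and 5 for the same results. Chosen after seeing the data, the probe sets with several symbols gave 5, 0, 3 and 2 (1 at an unadjusted p for the 0), and both kinds together gave 14 for CL+CX against NC and 4 for CL against NC. For the other settings the counts stand without the share of all probe sets called, so they do not single out ribosomal proteins. The cause of the differences between settings was not tested.

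Leaving out each mouse in turn gave 4 to 25 calls in CL+CX against NC and 0 to 2 in CL+CX against CL. It gave 0 to 35 in CL against NC and 4 to 36 for all diets. Each maximum but that of CL+CX against CL was without CL replicate 2. There the share of all probe sets called rose too. It was 14.7% in CL+CX against NC (9.79% with all livers), 18.9% in CL against NC (12.2%) and 22.1% for all diets (15.6%). For the other leave-outs that share is not given. The median of the members ranged over -0.27 to -0.22 in CL+CX against NC. In CL+CX against CL it ranged over -0.16 to 0.07, and in CL against NC over -0.35 to -0.07. Replicate numbers did not pair the mice, with correlations of their deviations of -0.132 to 0.135, and a replicate block gave 2 calls in CL against NC and ended that of Rplp0 in CL+CX against NC (adjusted p = 0.0523). Of the 72 differences of the named genes, 29 changed sign with the signals as deposited, 7 with quantile normalization and 7 with the β-actin covariate, none of them past the test in either fit. Signals near the array medians, 9.48 to 16.7 before scaling, limit the dim members.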
